A study of Mus musculus with 4 samples.

Results

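Interferon-stimulated macrophages, here called Ifit-high macrophages, were 81 of the 23961 immune cells kept from 4 single-cell RNA libraries of neonatal mouse hearts. They were chosen by measured values. A cell was C1q-positive, that is macrophage-like, when C1qa, C1qb and C1qc, the subunits of the first complement component, made up at least 30 of every 10000 of its UMIs (unique molecular identifiers, counted RNA molecules). It was Ifit-high when Ifit1, Ifit2, Ifit3 and Rsad2 together had at least 10 UMIs. Cells with more than 1 UMI of Cxcl9, more than 2 of Gpnmb, or more than 2 of the lymphocyte genes Cd3d, Cd3e, Cd3g, Cd79a and Cd79b were left out. The reference used throughout was the 8197 other C1q-positive cells within the same limits, which had fewer than 10 UMIs of the 4 genes.

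The KO_MI library came from PD1 homozygous deletion mice after myocardial infarction (MI), and the Het_MI library from PD1 heterozygous deletion mice after MI. The KO_sham and Het_sham libraries came from mice of the same 2 genotypes after a sham operation. All mice were on the C57BL/6 strain and carried at least 1 deleted copy of PD1, so no library is wild type. Surgery was on postnatal day 2, and CD45-positive immune cells were sorted 7 days later from hearts without atria. Each group is 1 library and the number of animals pooled in it is not given in the sources used here, so differences between groups have no replicates behind them and were not tested. All intervals are 95% intervals that cover counting error only. Cells of 1 library share their animals, and cell-to-cell variation is wider than those intervals.

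Type I interferons, such as interferon beta, bind the receptor pair Ifnar1 and Ifnar2 on almost every cell. The kinases Jak1 and Tyk2 then activate a transcription factor complex that holds Stat2 and Irf9, which enters the nucleus and binds the interferon-stimulated response element (ISRE) in the promoters of its target genes. Among these targets, the Ifit proteins bind viral RNA, and Rsad2 (viperin) makes a nucleotide that stops viral polymerases. Macrophages with such a programme are known from infarcted hearts, where DNA from dying cells is one trigger. PD1, encoded by Pdcd1, is an inhibitory receptor of activated lymphocytes and of some myeloid cells.

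The promoters below are shown because the choice of cells rests on 3 of these genes and because the levels of Isg15, Ccl12 and Ccl8 are described in detail further on. Each runs 5′ to 3′ from 250 bases before to 50 bases after the gene's start in RefSeq (build GRCm38.p6), with every match to the ISRE core (GAAA, 2 bases of any kind, then GAAA), on either strand, in capitals.
Rsad2: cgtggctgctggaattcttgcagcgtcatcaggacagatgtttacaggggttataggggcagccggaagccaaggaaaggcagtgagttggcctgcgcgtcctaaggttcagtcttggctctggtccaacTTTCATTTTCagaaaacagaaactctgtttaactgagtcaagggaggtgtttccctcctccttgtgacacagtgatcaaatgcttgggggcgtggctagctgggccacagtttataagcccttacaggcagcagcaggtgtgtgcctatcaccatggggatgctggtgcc
Ifit1: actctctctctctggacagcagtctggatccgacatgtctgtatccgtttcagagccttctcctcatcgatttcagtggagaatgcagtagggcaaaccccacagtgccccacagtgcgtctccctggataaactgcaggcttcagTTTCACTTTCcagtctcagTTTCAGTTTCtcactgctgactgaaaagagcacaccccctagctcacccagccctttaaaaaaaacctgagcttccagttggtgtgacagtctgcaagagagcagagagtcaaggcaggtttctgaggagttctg
Ifit3: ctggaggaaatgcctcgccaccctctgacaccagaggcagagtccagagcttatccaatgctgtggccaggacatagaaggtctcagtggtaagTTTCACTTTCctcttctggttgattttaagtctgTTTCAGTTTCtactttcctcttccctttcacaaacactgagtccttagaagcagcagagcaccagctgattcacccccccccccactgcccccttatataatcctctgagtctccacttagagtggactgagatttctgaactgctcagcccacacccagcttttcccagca
Isg15: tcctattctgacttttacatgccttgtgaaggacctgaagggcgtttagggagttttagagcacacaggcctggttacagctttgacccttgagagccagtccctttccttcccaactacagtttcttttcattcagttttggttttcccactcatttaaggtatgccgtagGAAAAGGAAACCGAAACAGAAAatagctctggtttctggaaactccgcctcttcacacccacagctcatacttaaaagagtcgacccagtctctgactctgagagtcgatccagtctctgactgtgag
Ccl12: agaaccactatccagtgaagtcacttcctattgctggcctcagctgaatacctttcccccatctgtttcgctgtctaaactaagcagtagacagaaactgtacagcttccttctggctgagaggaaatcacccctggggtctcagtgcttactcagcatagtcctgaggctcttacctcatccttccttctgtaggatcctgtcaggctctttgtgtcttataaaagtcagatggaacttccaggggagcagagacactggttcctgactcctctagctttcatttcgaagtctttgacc
Ccl8: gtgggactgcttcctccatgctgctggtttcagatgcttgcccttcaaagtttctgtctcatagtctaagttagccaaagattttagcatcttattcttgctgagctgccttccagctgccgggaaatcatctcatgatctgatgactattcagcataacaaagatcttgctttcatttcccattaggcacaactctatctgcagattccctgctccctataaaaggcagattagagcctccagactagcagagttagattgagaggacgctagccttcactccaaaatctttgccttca
The intervals are chr12:26456403-26456702 (- strand) for Rsad2, chr19:34640639-34640938 (+ strand) for Ifit1, chr19:34583279-34583578 (+ strand) for Ifit3, chr4:156200769-156201068 (- strand) for Isg15, chr11:82101595-82101894 (+ strand) for Ccl12, chr11:82114935-82115234 (+ strand) for Ccl8. The core was found once in the Rsad2 promoter, between 120 and 111 bases before the start, and 2 times each in those of Ifit1 and Ifit3. In Isg15 there were 3 overlapping matches between 78 and 57 bases before the start. No match lay in these windows of Ifit2, Irf7, Ccl12 or Ccl8. The core was in 3.44% of 32851 mouse promoters of this length, 1131 in all. A match is a description of letters and not a measured binding site.

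The 4 libraries held 6157 to 8379 barcodes and 52701847 to 72002420 UMIs, and 5074 to 7104 cells passed the filter. Of 23914 different barcodes, 47 were in more than 1 library, none of them an Ifit-high cell. KO_MI stood apart in sex-linked RNA: it had no Y-linked UMI in 2548 C1q-positive cells within the limits, whereas the other libraries held 548 to 1035 such cells with Y-linked UMIs and no Xist. All 45 KO_MI Ifit-high cells had Xist, the X-inactivation RNA, and no Y-linked UMI, against 6 of 21 in Het_MI, 1 of 10 in KO_sham and 1 of 5 in Het_sham.

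There were 45 Ifit-high macrophages in KO_MI, 21 in Het_MI, 10 in KO_sham and 5 in Het_sham. As a share of C1q-positive cells within the limits they were 1.77% [1.29 to 2.36] in KO_MI, 1.1% [0.681 to 1.67] in Het_MI, 0.415% [0.199 to 0.763] in KO_sham and 0.355% [0.115 to 0.826] in Het_sham, with exact Clopper-Pearson intervals. Both infarcted libraries were above both sham libraries. The ratio was 4.25 [2.11 to 9.46] for KO_MI over KO_sham and 3.10 [1.14 to 10.5] for Het_MI over Het_sham. The second ratio rests on 5 sham cells. Its interval included 1 with a limit of 20 UMIs (1.47 [0.395 to 6.69]), with a limit of 10 UMIs per 10000 (1.75 [0.732 to 4.62]), after thinning (2.48 [0.790 to 10.3]), without the Cxcl9 and Gpnmb limits (2.54 [0.999 to 7.66]) and in cells with Xist and no Y-linked UMI (5.36 [0.650 to 247]). The first ratio was 7.48 [2.93 to 24.4] after thinning.

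Between genotypes the ratio of shares was 1.61 [0.939 to 2.84] for KO_MI over Het_MI and 1.17 [0.365 to 4.37] for KO_sham over Het_sham, and both intervals included 1. For KO_MI over Het_MI the interval lay above 1 with a limit of 5 UMIs (1.60 [1.12 to 2.32]), with 10 UMIs per 10000 (1.82 [1.04 to 3.29]), after thinning (2.0 [1.07 to 3.92]) and without the Cxcl9 and Gpnmb limits (1.87 [1.13 to 3.22]). It also did so without the lymphocyte limit (1.91 [1.22 to 3.07]), an alternative added after seeing the data. The KO_sham over Het_sham ratio was under 1 in 4 alternatives, such as 0.663 after thinning. Among cells with Xist and no Y-linked UMI, also added after seeing the data, the share was 1.85% in KO_MI (45 of 2437 cells) and 1.78% in Het_MI (6 of 338 cells), a ratio of 1.04 [0.442 to 2.98].

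The members were deeper than the rest in every library. Ifit-high cells had a median of 10392, 13380, 11943.5 and 12700 UMIs in KO_MI, Het_MI, KO_sham and Het_sham, against 8051, 9992.5, 10293 and 10046 in the other C1q-positive cells. With every cell thinned to 4000 UMIs and a limit of 5 UMIs of the 4 genes, the shares were 1.70%, 0.850%, 0.227% and 0.343% in the same order. This left out 373, 149, 208 and 243 shallower cells. B cells reached 10 UMIs of the 4 genes in 0.364%, 0.115%, 0.0820% and 0.0907% of cells, at a lower median depth of 4064 to 5106 UMIs. Since almost every cell has the interferon receptor, these shares cannot separate free RNA from RNA made by the B cells. The sham shares of macrophages stood above those of B cells, with intervals that overlapped ([0.00208 to 0.456] for KO_sham B cells and [0.0023 to 0.504] for Het_sham B cells).

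**Figure D1:**
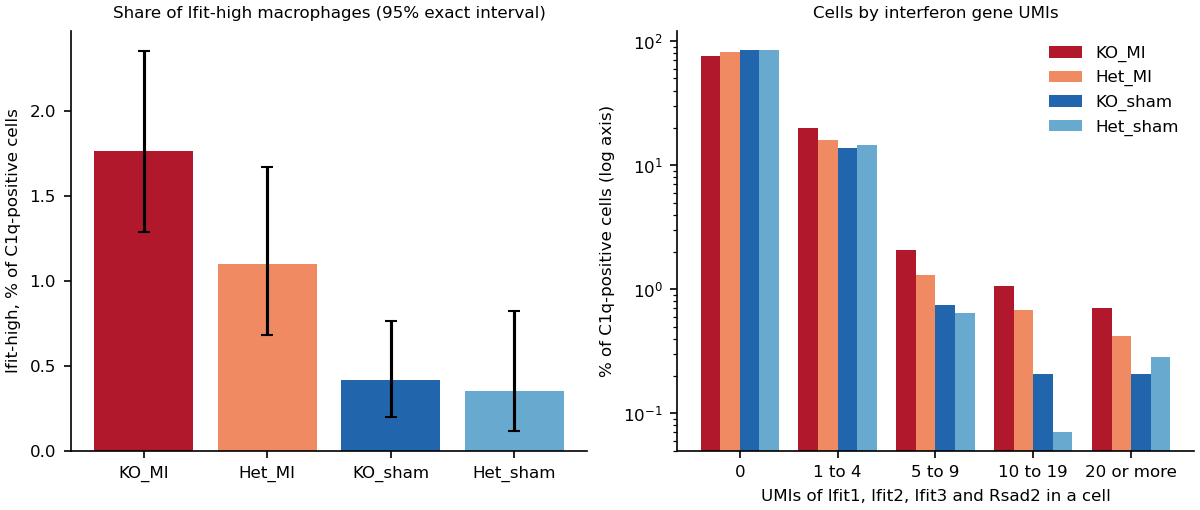
Left, Ifit-high macrophages as a percentage of C1q-positive cells within the limits in each library, with exact 95% intervals. Right, the percentage of C1q-positive cells (log axis) by UMIs of Ifit1, Ifit2, Ifit3 and Rsad2, where the class of 20 or more UMIs held 0.706% in KO_MI, 0.418% in Het_MI, 0.208% in KO_sham and 0.284% in Het_sham.

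The Ifit-high macrophages lay at the upper end of a range of UMIs, with cells on both sides of the limit. Whether they form a separate peak was not tested. In Het_sham 1 cell had 10 to 19 UMIs of the 4 genes and 4 cells had 20 or more. Of the C1q-positive cells, 76.3%, 81.7%, 85.1% and 84.5% in KO_MI, Het_MI, KO_sham and Het_sham had no UMI of the 4 genes, and 2.08%, 1.31%, 0.748% and 0.638% had 5 to 9. The 25 members just inside the limit (10 to 12 UMIs) had Isg15 at 759 CPM, where CPM stands for the UMIs of a gene per 1000000 UMIs summed over the cells. The 22 cells just outside it (8 to 9 UMIs) had 649 CPM. The limits on other cells removed 83 of 164 C1q-positive cells with 10 or more UMIs of the 4 genes, 67 of them through lymphocyte RNA. Of those with 10 or more UMIs, 43.6%, 26.7%, 50% and 33.3% failed the lymphocyte limit in KO_MI, Het_MI, KO_sham and Het_sham. Of all C1q-positive cells, 26.6%, 22.8%, 20.0% and 24.6% did.

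The genes that chose the cells were uneven among them. The sum of the 4 genes had a lowest, median and highest value of 10, 19 and 101 UMIs in KO_MI, 10, 13 and 26 in Het_MI, and 10, 22 and 37 in KO_sham. In Het_sham the 5 cells had 11, 20, 24, 25 and 79 UMIs. Rsad2 was at 633, 418, 793 and 614 CPM in KO_MI, Het_MI, KO_sham and Het_sham, against 17.3, 9.42, 6.54 and 8.03 CPM in the other C1q-positive cells. The median log2 ratio over the libraries was 5.86 for Rsad2, 5.80 for Ifit2, 5.30 for Ifit3 and 5.22 for Ifit1, all of which the rule fixed.

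Against B cells, the macrophage part of the name held by Apoe and Mrc1, which are outside the rule. Their levels were not compared with those of monocytes or dendritic cells. Apoe, a lipid carrier of macrophages, was at 23200, 13598, 14844 and 15381 CPM in KO_MI, Het_MI, KO_sham and Het_sham members, against 1489, 1367, 1080 and 662 CPM in B cells. In the other C1q-positive cells it was at 18445, 17477, 13137 and 14105 CPM, so the Het_MI members were below them. Any UMI of it was found in all 81 members but also in 49.1% to 71.3% of B cells, so its presence alone marks no cell. Mrc1, the mannose receptor, had UMIs in 93.3%, 95.2%, 100% and 80% of members and in 10.8%, 14.0%, 12.4% and 7.71% of B cells. The members were uneven in it. One KO_MI member had 0 UMIs of Mrc1, with 5 of Ccr2, from the classical monocyte list, and 138 of Cd74. The growth factor receptor Csf1r was at 878, 731, 924 and 640 CPM in KO_MI, Het_MI, KO_sham and Het_sham, against 885, 1026, 841 and 842 CPM in the other C1q-positive cells. Markers of other lineages ranged from absent to high. NK cell genes had 0 UMIs in all 81 cells, and fibroblast genes had 12, 2, 0 and 0 UMIs. T cell genes outside the rule had 45, 5, 3 and 1 UMIs, and B cell genes outside it 102, 24, 12 and 14. The neutrophil list was at 2037, 7254, 229 and 0 CPM in the members, against 3239, 2579, 2119 and 1563 CPM in the other C1q-positive cells. The defining pDC (plasmacytoid dendritic cell) gene Siglech had 1 UMI each in KO_MI and Het_MI and 0 in both sham libraries. The conventional dendritic cell list had 4, 1, 1 and 9 UMIs, the last all in 1 of the 5 Het_sham cells.

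Of the markers given for these cells, Ccl12 held and Ccl8 did not. Both are CC chemokines that attract monocytes and lie close to each other on chromosome 11. Ccl12 was at 987, 1173, 1839 and 1647 CPM in KO_MI, Het_MI, KO_sham and Het_sham, against 403, 404, 480 and 522 CPM in the other C1q-positive cells. That made log2 ratios of 1.29, 1.54, 1.94 and 1.66, although 1 cell held 47.8% of the Het_MI UMIs. It had UMIs in 80%, 81.0%, 80% and 100% of the members, in 58.1%, 64.7%, 67.7% and 62.8% of the other C1q-positive cells, and in 4.48%, 4.60%, 4.76% and 2.90% of B cells.

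Ccl8 had UMIs in 7 of the 81 cells. Its level was 17.1, 3.10, 0 and 65.3 CPM in KO_MI, Het_MI, KO_sham and Het_sham, against 40.4, 8.82, 1.94 and 1.34 CPM in the other C1q-positive cells. Its level was lower in the members of KO_MI. The 1 UMI in Het_MI members and the 0 UMIs in KO_sham members give no direction at that depth. The 5 UMIs behind the Het_sham value came from 1 cell. In Het_MI, 4.76% [0.120 to 23.8] of members and 2.85% of the other C1q-positive cells had a Ccl8 UMI. Cells with Ccl8 made up 11.1% of KO_MI members (5 of 45) and 5.55% of the other C1q-positive cells, against 0.848% of B cells. In KO_MI the gene was high elsewhere: 75 C1q-positive cells with at least 2 UMIs of Cxcl9, an interferon gamma target, had Ccl8 at 1007 CPM. The rule keeps those cells out, and they had Ifit1, Ifit2, Ifit3 and Rsad2 at 272 CPM against 1568 CPM in the KO_MI members.

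A broad antiviral programme went with the 4 genes. Over 5580 genes with a mean of at least 20 CPM, 57 were at least 2-fold higher in Ifit-high than in other C1q-positive cells in every library (1.02%), and 0 were at least 2-fold lower (0%). The median log2 ratio over all genes was −0.08. Since the rule used this contrast, these figures describe the cells and test nothing. The higher and lower counts are also not alike. Setting a count of 0 at 3 counts keeps some genes from reaching 2-fold lower, most of all in Het_sham, which has the fewest UMIs. Without Het_sham, 3 genes were at least 2-fold lower. TMM scaling put the centre of the ratios at −0.03 in KO_MI, −0.06 in Het_MI, 0.12 in KO_sham and 0.12 in Het_sham.

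Among other type I interferon effectors, 30 of 52 counted genes were at least 2-fold higher in all 4 libraries and 46 were higher in all 4, with a median log2 ratio of 1.77. Isg15, a ubiquitin-like protein coupled to other proteins, was at 1027, 966, 1357 and 1006 CPM in KO_MI, Het_MI, KO_sham and Het_sham, against 198, 194, 182 and 93.3 CPM in the other C1q-positive cells. It had UMIs in 44 of 45, 21 of 21, 8 of 10 and 5 of 5 members, so that only 3 members lacked it. Ifitm3, which blocks virus entry at endosomes, was at 1550, 1443, 981 and 1790 CPM in the members, against 663, 360, 337 and 389 CPM.

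The remaining effectors spanned a wide range of ratios. Usp18, which removes Isg15 from proteins and dampens the interferon receptor, had log2 ratios of 3.32, 4.10, 2.17 and 5.12. Cmpk2, a mitochondrial nucleotide kinase beside Rsad2, had 4.78, 3.88, 4.05 and 6.51, the last with 78.6% of UMIs in 1 cell. Among the 15 genes with the highest median ratios were also Phf11d (3.11), Ifi209 (3.09), Oasl1 (2.84), Ifi211 (2.84), Ms4a4c (2.72) and Xaf1 (2.47). Ifi27l2a, abundant in all macrophages, differed less, with 0.29, 0.73, 0.94 and 1.28.

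**Figure D2:**
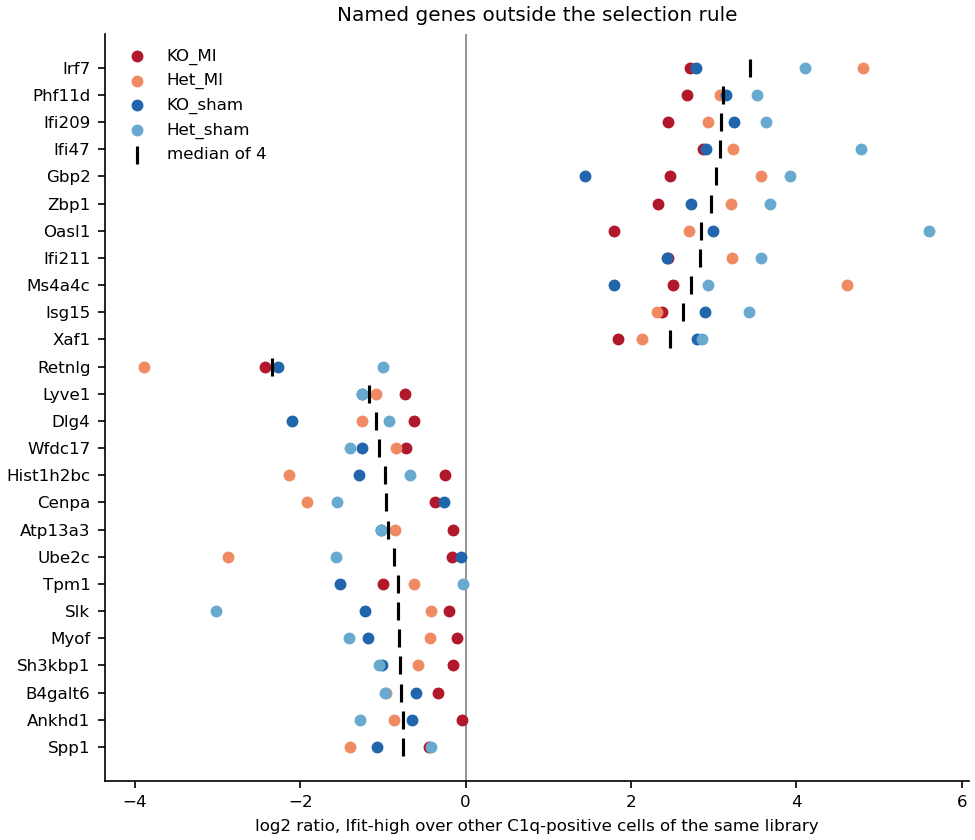
Log2 ratio of Ifit-high over other C1q-positive cells of the same library for the named genes outside the rule, 1 point per library and a bar at the median. A count of 0 was set at 3 counts, so the points of Retnlg in Het_MI and Het_sham, of Cenpa and Ube2c in Het_sham and of Spp1 in KO_sham are bounds; the lowest point of the 11 genes from Irf7 to Xaf1 is Gbp2 in KO_sham at 1.45, and all points of the 15 genes from Retnlg to Spp1 below 0.

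The signalling factors described here differed in size of ratio. Irf7, the factor that amplifies interferon production, was at 244, 437, 89.9 and 366 CPM in KO_MI, Het_MI, KO_sham and Het_sham, against 37.2, 15.7, 13 and 21.4 CPM in the other C1q-positive cells. In Het_MI 1 cell held 70 of the 141 Irf7 UMIs. Stat2, a part of the complex, had log2 ratios of 1.82, 1.58, 1.46 and 3.18. Irf9, the DNA-binding subunit of the complex, had only 0.02, 0.33, 0.10 and 0.89. The receptor chain Ifnar1 was at 52.7, 61.9, 57.2 and 105 CPM in the members, against 61.2, 73.8, 68.2 and 73.9 CPM. At these low levels and this depth the values give no direction.

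Sensors of foreign or misplaced nucleic acid were among the genes that were higher. Of 11 counted sensors and adaptors, 4 were at least 2-fold higher in all 4 libraries: Zbp1, which binds Z-form nucleic acid, and the RNA helicases Ifih1, Ddx58 and Dhx58. Zbp1 was at 213, 161, 106 and 327 CPM in KO_MI, Het_MI, KO_sham and Het_sham, against 42.3, 17.4, 16.1 and 25.5 CPM. Ifih1 (MDA5) was at 154, 136, 229 and 183 CPM, against 53.6, 55.2, 48.1 and 28.6 CPM. Unc93b1, which brings Toll-like receptors to endosomes, had log2 ratios of 0.28, 0.14, 0.27 and 0.53, and Tlr7 had −0.14, −0.01, 0.26 and −0.91.

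Of 20 interferon genes in the files, the members held UMIs of 1, Ifnb1, which encodes interferon beta. It had 22 UMIs in 6 of 45 KO_MI members, 5 UMIs in 5 of 21 Het_MI members, 5 UMIs in 2 of 10 KO_sham members (80% of them in 1 cell) and 0 UMIs in the 5 Het_sham members (exact 95% upper bound of the share with a UMI 52.2%). These are 34.1, 15.5 and 40.9 CPM, against 3.59, 7.53 and 6.36 CPM in the other C1q-positive cells of the same 3 libraries. As shares they are 13.3% [5.05 to 26.8], 23.8% [8.22 to 47.2] and 20% [2.52 to 55.6], against 2.0%, 4.44% and 3.38% of other C1q-positive cells. In B cells the share with a UMI was 0 of 825 (exact 95% upper bound 0.446%), 0.345% and 0.0820%. Ifng, the gene of interferon gamma, had 398, 149, 182 and 287 UMIs in all cells of KO_MI, Het_MI, KO_sham and Het_sham and 0 in the members.

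The guanylate-binding proteins (Gbp) and immunity-related GTPases (Irg), which attack membranes around intracellular microbes and respond to both interferon types, were higher as well. Of 17 listed genes 7 were counted, and 6 of these were at least 2-fold higher in all 4 libraries (Gbp2, Gbp3, Irgm1, Ifi47, Igtp and Iigp1), with a median log2 ratio of 2.32. Ifi47 was at 168, 108, 81.7 and 405 CPM in KO_MI, Het_MI, KO_sham and Het_sham, against 22.9, 11.5, 10.9 and 14.8 CPM. Gbp2 was at 223, 92.9, 16.3 and 118 CPM, against 40.2, 7.81, 6.00 and 7.77 CPM, where the KO_sham value comes from 2 UMIs of 1 cell. Fcgr1, the high-affinity Fc receptor, was at 434, 297, 360 and 405 CPM, against 165, 132, 123 and 160 CPM, with log2 ratios between 1.17 and 1.55.

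MHC class I genes, whose products present peptides to CD8 T cells, differed less. Of 17 counted genes 12 were higher in all 4 libraries and 0 by 2-fold, with a median log2 ratio of 0.62. B2m, the light chain, had 0.21, 0.28, 0.06 and 0.90, while Tap1, the peptide transporter, had 1.28, 1.51, 0.56 and 2.28.

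Cxcl10, a chemokine for activated T cells, was at 2136, 1824, 3556 and 4273 CPM in KO_MI, Het_MI, KO_sham and Het_sham, against 830, 1115, 1110 and 475 CPM. Of these UMIs, 48.3% in KO_sham and 92.4% in Het_sham came from 1 cell, and 2 of the 5 Het_sham members had none. The other CC chemokines followed no common pattern: Ccl2 had log2 ratios of 0.19, −0.29, 1.33 and 0.12, and Ccl4 had 0.56, 0.82, 1.78 and 1.30, the last with 97.0% of UMIs in 1 cell.

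**Figure D3:**
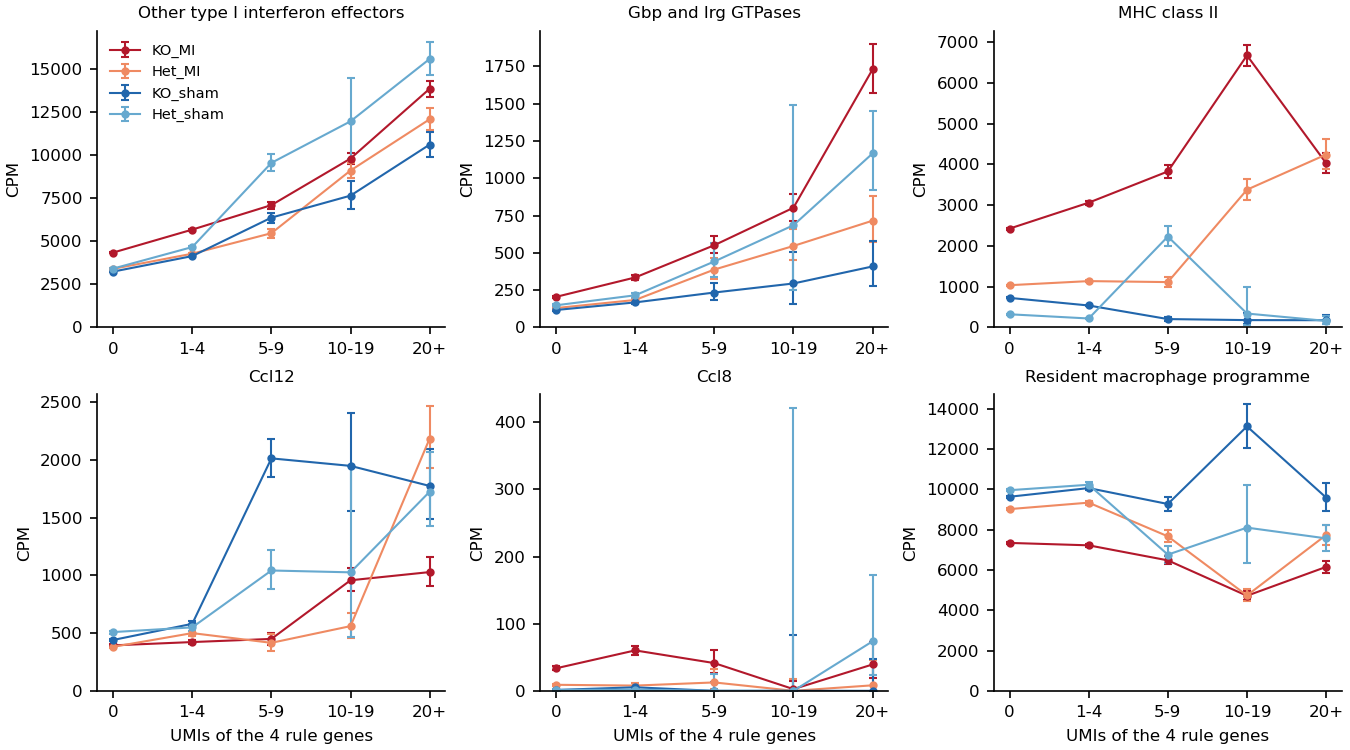
CPM of 4 gene lists, Ccl12 and Ccl8 in C1q-positive cells grouped by their UMIs of the 4 rule genes, with exact 95% Poisson intervals; 1 to 27 cells stand behind each point from 10 UMIs up. The other type I interferon effectors were higher in each class than in the one before it in all 4 libraries, while MHC class II and the resident macrophage programme showed no such order.

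With more UMIs of the 4 genes, the level of the other effectors was higher step by step. Over 0, 1 to 4, 5 to 9, 10 to 19 and 20 or more UMIs, it was 4356, 5691, 7114, 9821 and 13880 CPM in KO_MI and 3410, 4291, 5482, 9126 and 12106 CPM in Het_MI. In KO_sham it was 3249, 4152, 6388, 7666 and 10633 CPM, and in Het_sham 3424, 4677, 9570, 11986 and 15613 CPM, the last 2 from 1 and 4 cells. Ccl12 followed the same order in KO_MI, from 394 CPM at 0 UMIs to 1030 CPM at 20 or more, but not in the other 3 libraries.

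More genes were lower than higher in the Ifit-high macrophages of all 4 libraries (671 and 339 of 5580), but none of the lower ones reached 2-fold in all 4. A count of 0 was set at 3 counts, which bounds how low a ratio can be in the small sham sums. Retnlg had log2 ratios of −2.42, −3.88, −2.27 and −0.99992 in KO_MI, Het_MI, KO_sham and Het_sham. Its Het_MI and Het_sham values are bounds from 0 UMIs. The resident macrophage programme had 13 counted genes, of which 6 were lower and 0 higher in all 4 libraries, with a median log2 ratio of −0.48. Lyve1, a hyaluronan receptor of resident heart macrophages, was at 74.5, 80.5, 81.7 and 65.3 CPM in KO_MI, Het_MI, KO_sham and Het_sham, against 123, 170, 195 and 156 CPM. Of those UMIs 70% in KO_sham and 100% in Het_sham came from 1 cell. F13a1, a clotting factor subunit of tissue macrophages, had log2 ratios of −0.21, −0.68, −0.40 and −0.79. Wfdc17, a secreted inhibitor of macrophage activation, was at 388, 195, 98.1 and 78.4 CPM, against 636, 349, 233 and 206 CPM. Mrc1 and Pf4 of the same programme were higher in KO_sham (0.25 and 0.35) and lower in the other 3 libraries.

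**Figure D4:**
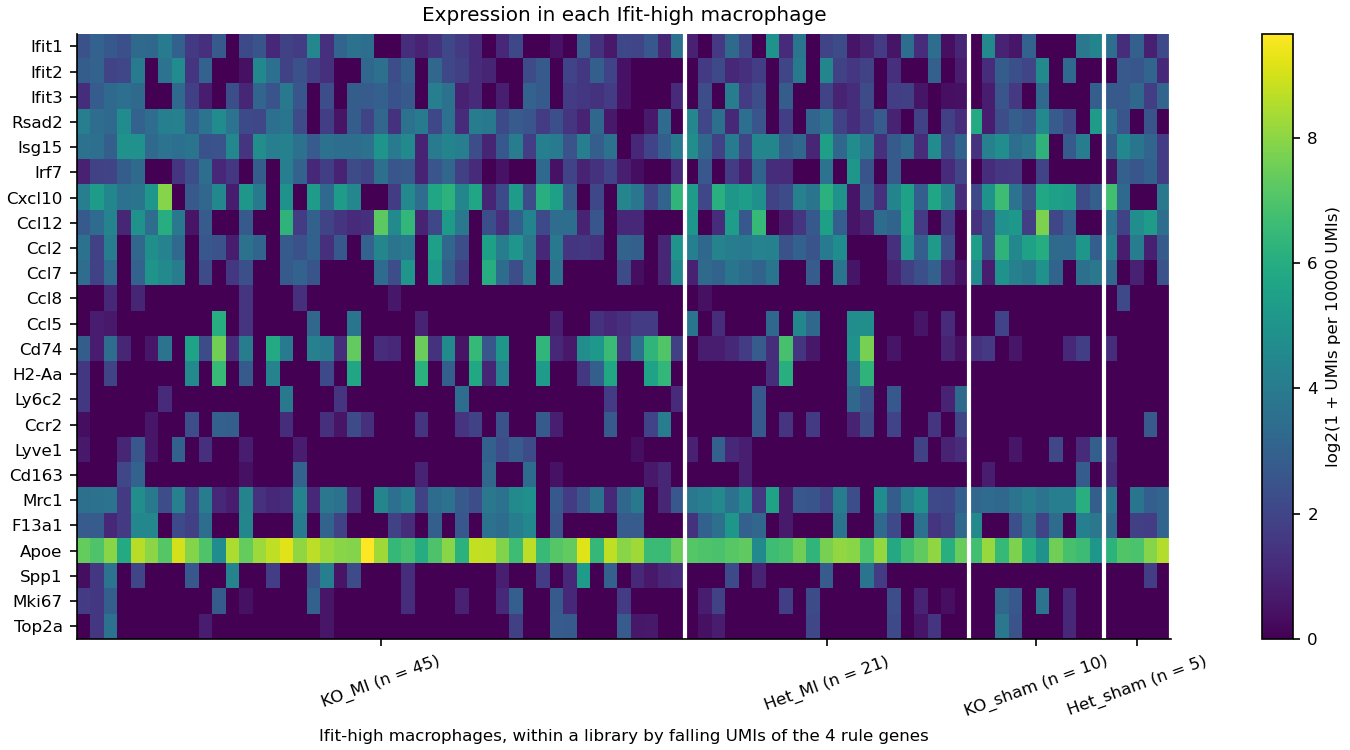
Heat map of 24 genes (rows) in the 81 Ifit-high macrophages (columns), as log2(1 + UMIs per 10000 UMIs), by library and within a library by falling UMIs of the 4 rule genes. Apoe and Isg15 are present in nearly all cells, Ccl8 in 7, and Cd74 with H2-Aa in a subset of KO_MI and Het_MI cells.

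The members differed among themselves in MHC class II, which presents antigen to CD4 T cells. At least 50 class II UMIs were found in 14 of 45 KO_MI members and 3 of 21 Het_MI members, and in 0 of 10 KO_sham and 0 of 5 Het_sham members. The same held for 9.07%, 3.81%, 2.0% and 0.356% of the other C1q-positive cells. Cd74, the class II chaperone, ranged from 0 to 192 UMIs per cell in KO_MI with a median of 5, and from 0 to 220 in Het_MI with a median of 1. Its level was 2471, 1533, 65.4 and 52.3 CPM in KO_MI, Het_MI, KO_sham and Het_sham members, against 1181, 464, 294 and 141 CPM in the other C1q-positive cells. The members were thus above the other cells in both infarcted libraries, although 1 cell held 44.4% of the Het_MI Cd74 UMIs. The lower sham values rest on 8 Cd74 UMIs in KO_sham and 4 in Het_sham, the latter all in 1 cell. The median of class II UMIs per cell was 1 in KO_sham members and 2 in the other C1q-positive cells there. In Het_sham it was 2 in both.

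Monocyte and neutrophil RNA sat in a few members. Ly6c2, which marks classical monocytes, had UMIs in 7 of 45 KO_MI and 6 of 21 Het_MI members and in none of the 15 sham members. The summed classical monocyte list was at 728, 1505, 16.3 and 105 CPM in KO_MI, Het_MI, KO_sham and Het_sham members, against 377, 202, 224 and 172 CPM in the other C1q-positive cells. One Het_MI member held 2332 of the 2343 UMIs of the neutrophil list in that library, and 5 KO_MI members had 50 or more. Without cells of 50 or more such UMIs, 40 members remained in KO_MI and 20 in Het_MI, and 59 genes were at least 2-fold higher in all 4 libraries, 55 of them among the 57. Without the same cells, the share ratio of KO_MI over Het_MI was 1.51 [0.862 to 2.73], against 1.61 with them. The genes at least 2-fold apart in that contrast were 221 higher and 320 lower, against 210 and 235. The log2 ratio of the Gbp and Irg GTPases was 0.83, against 0.94. The part of these cells in results not recomputed this way was not tested.

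The comparison of KO_MI with Het_MI asks what loss of the second PD1 copy went with after infarction, and has the most cells behind it (45 and 21). Pdcd1 itself had 0 UMIs in the members of all 4 libraries, and a 3′ library need not show which part was deleted, so it does not check the genotype here. Of 5377 genes, 210 were at least 2-fold higher (3.91%) and 235 at least 2-fold lower (4.37%) in KO_MI members. The other type I effectors had 8 higher and 2 lower of 55 counted, and their sum was at 11423 CPM in KO_MI and 10248 CPM in Het_MI, which gives a log2 ratio of 0.16 [0.10 to 0.22]. Isg15 had a log2 ratio of 0.09 [−0.11 to 0.29] and Cxcl10 one of 0.23 [0.09 to 0.37].

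The GTPases differed more than the other effectors. Their sum was at 1168 CPM in KO_MI members and 610 CPM in Het_MI members, with a log2 ratio of 0.94 [0.71 to 1.17], with 4 of 9 counted genes at least 2-fold higher (Gbp2, Gbp6, Gbp7 and Iigp1) and 0 lower. The other C1q-positive cells also had more in KO_MI than in Het_MI. There the GTPase sum was at 247 and 144 CPM, and that of the other type I effectors at 4767.5 and 3607 CPM. Gbp2 had 144 UMIs in KO_MI and 30 in Het_MI, with a log2 ratio of 1.27 [0.69 to 1.88], against 2.36 in the other C1q-positive cells. In Het_MI 1 cell held 50% of those UMIs. Gbp7 had 1.20 [0.63 to 1.83], against 0.15 in the other cells. Whether the members differ from the other cells in these ratios was not tested.

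Antigen-presentation genes were also higher in KO_MI than in Het_MI, in the members and in the other C1q-positive cells. The MHC class I list had 3 of 16 counted genes at least 2-fold higher (H2-Q4, H2-Q6 and H2-Q7) and 0 lower, with a summed log2 ratio of 0.51 [0.43 to 0.58]. H2-Q7, a non-classical class I gene, was the highest of the named genes, at 164 CPM in KO_MI (106 UMIs) and 40.2 CPM in Het_MI (13 UMIs), with a log2 ratio of 2.03 [1.19 to 2.99]. The H2-Q genes are near-identical copies whose reads can be split between them, so their single values are uncertain. The class II sum had a log2 ratio of 0.60 [0.51 to 0.70], which was −0.04 when members were chosen by 10 UMIs per 10000. In the other C1q-positive cells the class I sum was at 6768 CPM in KO_MI and 4881 CPM in Het_MI, and the class II sum at 2626 CPM and 1058 CPM.

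The other named genes were Spp1 (osteopontin, of macrophages in injured tissue), with a log2 ratio of 1.96, Fcgr4 (an activating Fc receptor) with 1.85, Pltp (phospholipid transfer) with 1.80 and Resf1 with 1.62. In the other C1q-positive cells the same ratios were 1.0, 1.12, 0.19 and 0.03. Genes lower in KO_MI members were the tetraspanin Cd81 (−1.18), the thioredoxin reductase Txnrd1 (−1.06), the endotoxin co-receptor Cd14 (−0.89) and the cell cycle inhibitor Cdkn1a (−0.81). Irf7 had a log2 ratio of −0.84 that was 0.68 when members were chosen by 10 UMIs per 10000, and 1 cell held 49.6% of its Het_MI UMIs. The summed classical monocyte list stood at −1.05 [−1.23 to −0.86] and the neutrophil list at −1.83, which was 1.43 without cells of 50 or more neutrophil UMIs. Xist was found in all KO_MI members and in 7 of 21 Het_MI members, and the part of sex in these ratios was not tested.

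**Figure D5:**
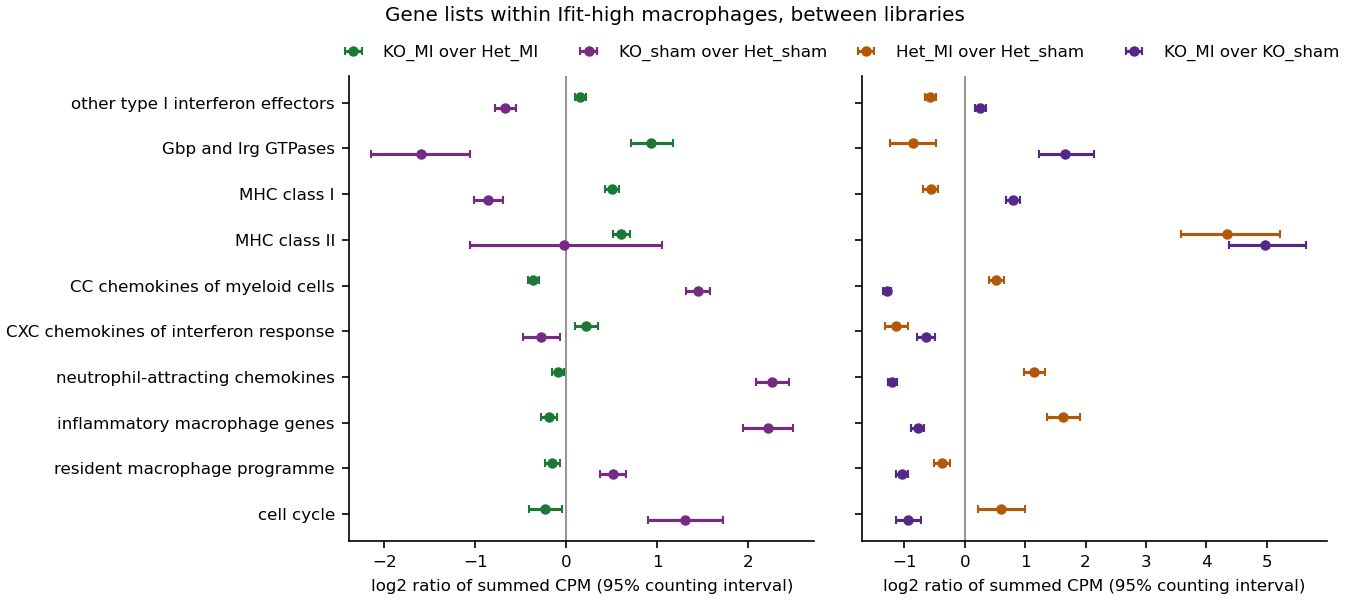
Log2 ratio of the summed CPM of 10 gene lists within Ifit-high macrophages, with 95% counting intervals, for the genotype contrasts (left) and the infarction contrasts (right). The GTPases stand at 0.94 for KO_MI over Het_MI and −1.59 for KO_sham over Het_sham, and MHC class II stands above 4 in both infarction contrasts, where the sham side has 22 and 14 UMIs.

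The infarction contrasts set 45 KO_MI cells against 10 KO_sham cells and 21 Het_MI cells against 5 Het_sham cells. For KO_MI over KO_sham, 429 of 5393 genes were at least 2-fold higher (7.95%) and 693 at least 2-fold lower (12.8%). With TMM scaling, which put the centre of these ratios at −0.25, the counts were 674 higher and 439 lower, and with median-of-ratios scaling 533 and 558. For Het_MI over Het_sham, 881 of 5466 genes were higher (16.1%) and 908 lower (16.6%), against 1120 and 639 with TMM scaling, which put the centre at −0.26. Relative to those centres, each ratio of the infarction contrasts below is higher by that amount.

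MHC class II differed in every counted gene. All 6 counted class II genes were at least 2-fold higher in KO_MI than in KO_sham members, and all 6 in Het_MI than in Het_sham members. The sum was at 5633 CPM in KO_MI and 180 CPM in KO_sham, a log2 ratio of 4.97 [4.37 to 5.65], and at 3706 CPM in Het_MI and 183 CPM in Het_sham, a log2 ratio of 4.34 [3.59 to 5.22]. In Het_MI the highest member held 475 of the 1197 class II UMIs and the second highest 461. The median was 4 class II UMIs per Het_MI member and 2 per Het_sham member. H2-Eb1 had 541 UMIs in KO_MI and 1 in KO_sham members, and H2-Aa 698 and 0 UMIs. In the other C1q-positive cells the KO_MI over KO_sham log2 ratios were 2.24 for H2-Eb1, 2.22 for H2-Aa and 2.0 for Cd74. Cells with at least 50 class II UMIs were 31.1% of KO_MI and 14.3% of Het_MI members, while a count of 0 allows a share of up to 30% in the 10 KO_sham members and up to 60% in the 5 Het_sham members.

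Other named genes for KO_MI over KO_sham were Fcgr4, with 144 UMIs against 2 (log2 ratio 3.77), and on the lower side the platelet factor Pf4, a resident macrophage gene, at 1874 CPM against 6000 CPM (−1.68), Rab7b (−1.75), Arl4c (−1.46), Smc1a (−1.30) and the prostaglandin D synthase Hpgds (−1.28). In the other C1q-positive cells the same ratios were 1.34, −0.59, 0.03, −0.07, −0.31 and −0.24. The GTPases had 6 of 9 counted genes higher and 0 lower, with a summed log2 ratio of 1.67 [1.23 to 2.13], and other type I effectors 13 of 55 higher and 0 lower. In the other C1q-positive cells the GTPase sum was at 247 CPM in KO_MI and 127 CPM in KO_sham, and that of the other effectors at 4767.5 and 3429 CPM. The resident programme had 1 of 13 genes higher and 4 lower, with −1.04 for the sum. In the other C1q-positive cells its sum was at 7291 CPM in KO_MI and 9705 CPM in KO_sham. The immediate early and dissociation list, which responds to tissue handling, was at 10320 CPM in KO_MI members and 15449 CPM in KO_sham members (−0.58 [−0.66 to −0.51]). Its part in these ratios was not tested.

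For Het_MI over Het_sham, the named genes included inflammatory ones. Il1b, the gene of interleukin 1 beta, had 302 UMIs in 14 of 21 Het_MI members and 0 in 5 Het_sham members, a log2 ratio of at least 4.58 with the 0 set at 3 counts, and 4.18 without the Het_MI cell with the most UMIs (23.8% of them). Neutrophils also express Il1b, and the neutrophil list had 2343 UMIs in Het_MI members, nearly all in 1 cell, and 0 in Het_sham members; its part in this ratio was not tested. The receptor Tlr2 had 135 UMIs against 4 (3.0), Csrnp1 114 against 3 (3.17), Kdm6b, a histone demethylase, 184 against 6 (2.86), and the nuclear RNA Neat1 288 against 9 (2.92). Inflammatory macrophage genes had 7 of 11 counted members higher and 0 lower. In other C1q-positive cells the Il1b log2 ratio was 1.34. Other type I effectors had 2 of 55 higher and 18 lower, with −0.57 [−0.67 to −0.47] for the sum. The GTPases had 1 of 10 higher and 4 lower, with −0.86 [−1.24 to −0.48], which was −0.27 when members were chosen by 10 UMIs per 10000. The immediate early and dissociation list, which responds to tissue handling, was at 9715 CPM in Het_MI members and 5972 CPM in Het_sham members (0.70 [0.56 to 0.85]), and its part in these ratios was not tested.

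For KO_sham over Het_sham, 1029 of 5455 genes were at least 2-fold higher (18.9%) and 920 lower (16.9%), with 10 cells against 5. The named genes were the kinase Pim1 (log2 ratio 2.94), the survival factor Mcl1 (2.21), Kctd12 (1.83), the phosphatase Dusp1 (1.78) and the nuclear RNA Malat1 (1.72). In the other C1q-positive cells these were 0.93, 0.34, 0.14, 0.65 and 0.04. Other type I effectors had 0 of 56 higher and 20 lower, with −0.67 [−0.79 to −0.55] for the sum, and MHC class I had 1 of 18 higher and 7 lower, with −0.85 [−1.01 to −0.70]. The GTPases had 0 of 8 higher and 4 lower, with −1.59 [−2.15 to −1.06]. Inflammatory macrophage genes had 9 of 10 higher and 0 lower, with 2.21 [1.94 to 2.49]. The immediate early and dissociation list was at 15449 CPM in KO_sham members and 5972 CPM in Het_sham members. Its part in these ratios was not tested.

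Cells with 10 or more UMIs of the 4 genes were not confined to macrophages. Among cells that were not C1q-positive there were 13 of 3240 in KO_MI (0.401%), 8 of 2418 in Het_MI (0.331%), 3 of 3367 in KO_sham (0.0891%) and 6 of 3492 in Het_sham (0.172%). In KO_MI, the 8 of these within the lymphocyte limit had Ly6c2 at 1283 CPM, against 79.1 CPM in KO_MI Ifit-high macrophages. Their other type I effectors were at 28435 CPM, against 11423 CPM in the macrophages, and Ccl12 was at 32.5 CPM, against 987 CPM.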

How the data were processed

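The deposited files hold raw UMI counts per gene and cell barcode for each of the 4 libraries, with no normalization by the authors. Per the labels' protocols, CD45-positive cells were sorted with a dead-cell dye and libraries were made with 10x 3′ v3 chemistry. Per the file headers, the matrices were written by Cell Ranger 4.0.0, whereas version 6.1.1, Seurat 4 and the builds mm10 and GRCm38 appear per the submitters' processing notes. How barcodes were called as cells is not stated there. No authors' cell annotation was used.

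Cells with at least 500 UMIs, at least 200 genes and at most 10% mitochondrial UMIs were kept. Members were chosen by fixed limits on UMIs and no clustering. UMIs were summed over the members and over the other C1q-positive cells of each library and divided by their total as CPM. Genes with a mean of at least 20 CPM over the 2 sums were counted, and a 2-fold difference was the threshold. Shares have exact Clopper-Pearson intervals, levels exact Poisson intervals and ratios exact conditional binomial intervals, all at 95%. A count of 0 was set at 3 counts per library, and a ratio whose direction that value undid was set to 0. With 1 library per group, no test was made. The members, gene lists and limits were chosen with earlier results of these data known.

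The named genes were the rule genes and given markers, the most abundant and extreme members of each list described, and the 15 highest and 15 lowest genes against other C1q-positive cells, of those with 1 sign in all libraries, at least 50 CPM and 40 UMIs. Within the members, the 5 highest and 5 lowest of each contrast with 100 UMIs, an interval beyond 1.5-fold and under 25% of UMIs in 1 cell were added. Fewer passed on some sides. Mitochondrial, ribosomal, haemoglobin, sex-linked and unnamed genes were left out. Of the listed symbols, Mnda, Mx1, Mx2, Mb21d1 and Cxcl11 matched no symbol and were not analysed here.

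Doublets were not removed. Scrublet (scanpy 1.11.5) called 5, 1, 0 and 177 cells in KO_MI, Het_MI, KO_sham and Het_sham by its automatic threshold, which did not work in the first 3, so the top scores at the rate expected from the barcodes (0.8% per 1000) were removed as an alternative (576, 252, 447 and 354 cells, 3 of them KO_MI members). Other alternatives were limits of 5 and 20 UMIs, 10 UMIs per 10000, thinning, another denominator, no Cxcl9 and Gpnmb limits, no filter on low genes, and TMM and median-of-ratios factors from edgeR 4.0.16. Gene ratios and their intervals were tested on Poisson counts simulated from the KO_MI sums, for members against other C1q-positive cells. There 95.4% of the intervals held the true ratio. The simulated counts had no cell-to-cell variation, and did not cover the small sham sums or the contrasts between libraries. Analyses ran in Python 3.11.15 with scipy 1.17.1 and in R 4.3.3.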

Additional observations from a re-analysis of the deposited data

Results flagged for a closer look

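In 3 gene lists with at least 100 UMIs in each contrast, the log2 ratios of the members under the same kind of contrast had opposite signs, with both counting intervals beyond 1.5-fold. Other lists had opposite signs without passing that limit, such as the Gbp and Irg GTPases at 1.67 for KO_MI over KO_sham and −0.86 for Het_MI over Het_sham. With 1 library per group, the differences were not tested. Chemokines that attract neutrophils (chiefly Cxcl2) had a summed log2 ratio of −1.20 for KO_MI over KO_sham and 1.15 for Het_MI over Het_sham, and 1 of the 5 Het_sham cells held 98.3% of its Cxcl2 UMIs. Inflammatory macrophage genes stood at −0.78 for KO_MI over KO_sham and 1.63 for Het_MI over Het_sham. The immediate early and dissociation list, which responds to tissue handling, had the same signs, at −0.58 and 0.70. Its part in these differences was not tested. Gbp and Irg GTPases stood at 0.94 for KO_MI over Het_MI and −1.59 for KO_sham over Het_sham, where the sums are 45 and 85 UMIs.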

How the results depend on the processing

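Of 102 alternative values for 14 results, 87 stayed within the counting interval of the reported ratio or within 1.5 times the reported count. Among these the share ratio of KO_sham over Het_sham, 1.17, was 0.732, 0.879, 0.663 and 0.429 with a limit of 20 UMIs, with 10 UMIs per 10000, after thinning and in cells with Xist and no Y-linked UMI. The genes at least 2-fold higher than in other C1q-positive cells numbered 55 to 73 against 57, with 50 to 57 in common, 55 without Het_sham. The genes at least 2-fold lower, 0 in the report, were 1 with TMM scaling, 3 with a limit of 20 UMIs, 10 with a limit of 10 UMIs per 10000, 3 without Het_sham and 1 without cells of 50 or more neutrophil UMIs. Counting every gene with 1 UMI gave 993 higher and 883 lower genes for KO_MI over Het_MI, 724 and 1765 for KO_MI over KO_sham, and 1907 lower genes for Het_MI over Het_sham. A limit of 10 UMIs per 10000 gave 489 higher and 428 lower genes for KO_MI over Het_MI. TMM scaling gave 674 and 439 for KO_MI over KO_sham. In cells with Xist and no Y-linked UMI, the share ratio of KO_MI over KO_sham was 13 [2.22 to 525], from 1 KO_sham cell. The cause of these shifts was not tested. The alternatives on sex, lymphocyte limits, neutrophil UMIs and the left-out library were chosen after seeing the data. No paired analysis was possible because each group has 1 library, and leaving out a replicate would empty a group. Depth limits the sham values, which rest on 10 and 5 cells with 122340 and 76522 UMIs, against 644646 in KO_MI and 322994 in Het_MI.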
